A study of Mus musculus with 12 samples.

Results

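The interleukin 6 family of cytokines and receptors was followed in C57MG mouse mammary epithelial cells treated with Rspo2, Wnt3a or both proteins. The 10 members were Il6, Il6ra, Il6st, Il11, Lif, Lifr, Osm, Osmr, Clcf1 and Cntf. They were chosen by name as a family, though with earlier results of these data known. Every array spot other than controls whose gene name was one of these symbols was used. This gave 16 probes for 9 of the 10 genes, on 25 spots per array, among 41174 probes and 43379 spots in all. Lif had no probe under its symbol. Osmr, Il6ra, Osm and Cntf had 2 probes each, Lifr had 4, and Il6, Il6st, Il11 and Clcf1 had 1 each, with the Il6 probe printed 10 times on every array.

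Cytokines of this family signal through gp130, the shared receptor chain encoded by Il6st. Interleukin 6 and interleukin 11 first bind a receptor chain of their own, Il6ra in the case of interleukin 6, while leukemia inhibitory factor (Lif) and oncostatin M (Osm) bring gp130 together with the receptor chains Lifr or Osmr. Clcf1 and Cntf use gp130 with Lifr and a further receptor, Cntfr. The receptor complexes activate Jak kinases and the transcription factor Stat3, and Socs3 limits the signal. In the mammary gland, signalling of this kind is best known from weaning, when Lif and Stat3 act in the death and clearance of milk-producing cells.

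C57MG is a line of mouse mammary epithelial cells, so all results refer to 1 cell line in culture. Monolayers in plain medium without serum received, for 24 h, 100 ng/ml of recombinant human Rspo2, 100 ng/ml of recombinant mouse Wnt3a, 100 ng/ml of each, or only the carrier protein bovine serum albumin (BSA). Each of the 4 groups had 3 monolayers, and the RNA of each was hybridized to its own one-color array. Rspo2 belongs to the R-spondins, secreted proteins that strengthen Wnt signalling, and the design asked what each protein did alone and whether the pair did more than the sum of both.

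The promoters of Il6 and Osmr are shown because these members gave the changes described below. Each sequence is the 250 bases before the RefSeq transcription start of the GRCm38.p6 build, written 5′ to 3′ along the gene, for Il6 at chr5:30012864-30013113 (plus strand) and for Osmr at chr15:6874314-6874563 (minus strand). Capitals mark matches to any of the motifs named next.
Il6: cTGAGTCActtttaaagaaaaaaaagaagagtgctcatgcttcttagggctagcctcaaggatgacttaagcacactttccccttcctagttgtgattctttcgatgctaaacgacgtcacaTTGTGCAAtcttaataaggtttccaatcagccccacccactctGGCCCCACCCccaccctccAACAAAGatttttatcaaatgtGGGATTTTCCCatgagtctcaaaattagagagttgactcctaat
Osmr: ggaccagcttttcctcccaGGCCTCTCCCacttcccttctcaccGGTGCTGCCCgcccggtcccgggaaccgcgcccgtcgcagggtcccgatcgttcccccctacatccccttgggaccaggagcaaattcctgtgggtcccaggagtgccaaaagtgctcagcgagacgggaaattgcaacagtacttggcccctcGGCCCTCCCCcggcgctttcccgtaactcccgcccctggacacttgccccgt
Both strands were searched for the STAT motif TTCNNNGAA, the NF-κB motif GGGNNNNNCC, the C/EBP motif TTGCNNAA, the CRE motif TGACGTCA, the AP-1 motif TGANTCA, the TCF/LEF motif CTTTGNT and the TATA box motif TATAAA. The Il6 window held an AP-1 match from 249 to 243 bases before the start, a C/EBP match from 128 to 121, a TCF/LEF match from 66 to 60 and 3 NF-κB matches, of which 2 overlapped each other between 44 and 34 bases before the start. The Osmr window held 3 NF-κB matches and none of the other motifs. Of all 32851 promoter windows of this length, 45.8% held the NF-κB motif, 16.0% the TCF/LEF, 9.56% the C/EBP, 7.02% the STAT, 6.75% the AP-1, 12.4% the TATA box and 1.55% the CRE motif, so the NF-κB letters as searched are common. These are matches of letters and not measured binding sites.

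A probe was tested when some group had all 3 of its arrays well above background, which held for 22750 probes and for 11 of the 16 family probes, from 8 genes. Levels are given as intensities after background subtraction, not scaled between arrays, and differences as log2 changes after each array was divided by its 75th percentile. Adjusted p-values come from limma with Benjamini-Hochberg adjustment over all probes tested, and a probe was called when its adjusted p was under 0.05 and its change at least 2-fold. With Rspo2 0 of the 11 family probes were called, against 0.721% of all probes tested, and with Wnt3a also 0, against 2.52%. With both proteins 2 were called lower, against 5.08% called over all probes, and these were the 2 Osmr probes. Between both proteins and Wnt3a 0 were called, against 0.747%, and in the interaction, the change with both less the sum of the changes with each alone, 1 was called, the Il6 probe, against 1.93%. At an adjusted p under 0.05 and any size of change, 4 family probes were lower and 0 higher with Rspo2 (16.8% of all probes passed), 4 lower and 1 higher with Wnt3a (31.5%), and 5 lower and 1 higher with both (39.2%). The probe counted higher with Wnt3a and with both was Il11. It was tested only because the arrays with both, where it was brightest, were well above background. Between both and Wnt3a 1 was higher and 1 lower (4.27%), and in the interaction 1 passed (8.90%). In the comparison of both proteins with Rspo2 alone, which was added after the data were seen, 0 were called (2.67% of all probes), and 2 were higher and 3 lower at any size (16.5%). Without adjustment, 4, 5, 6, 5 and 4 of the 11 had p under 0.05 in the first 5 comparisons, against 35.0%, 43.0%, 47.9%, 18.4% and 29.3% of all probes tested. The median log2 change of the 11 probes was -0.26 with Rspo2, -0.34 with Wnt3a and -0.21 with both, against 0.01, -0.000277 and 0.04 over all probes tested. The comparisons with BSA share the same 3 control arrays.

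**Figure D1:**
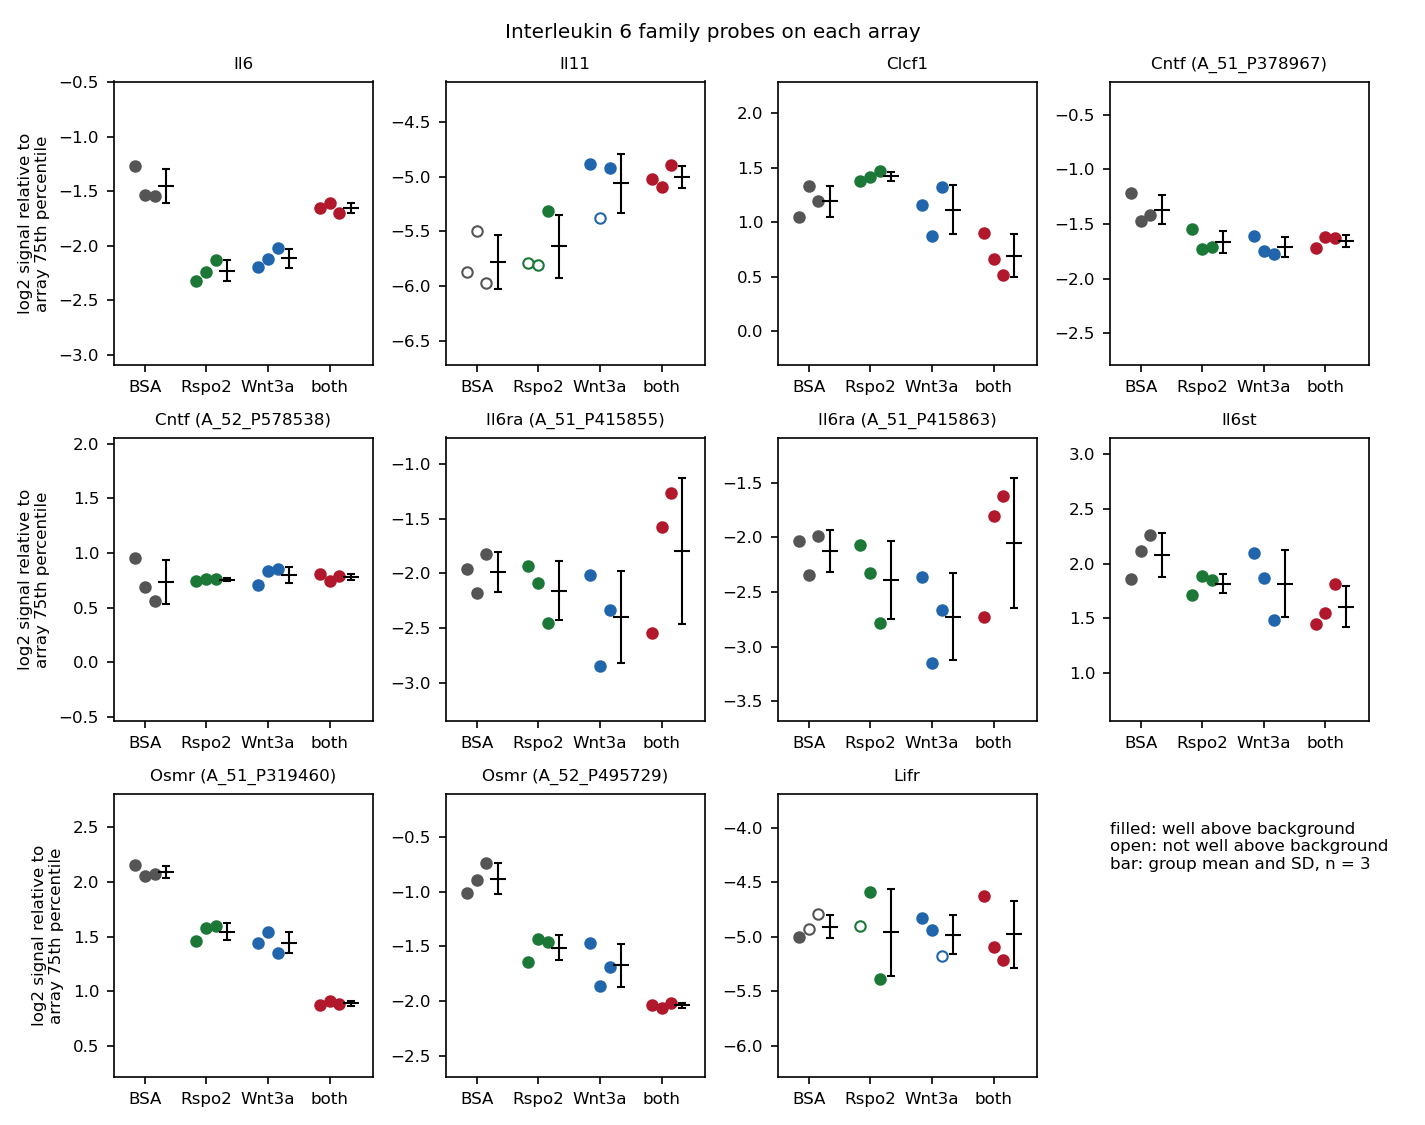
Signal of the 11 tested family probes on each of the 12 arrays, as log2 after division by the array's 75th percentile, with the group mean and SD (n = 3) beside the points. Filled points were well above background. Il6 lay between -1.54 and -1.27 with BSA and between -2.32 and -2.02 with either protein alone, and the Osmr probes were lowest with both proteins.

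Il6 mRNA, which encodes the cytokine that names the family, was lower with either protein alone, and with both it lay between these groups and the control. Its intensity was 394, 396 and 370 on the BSA arrays. With Rspo2 it was 205, 186 and 182, and with Wnt3a it was 196, 178 and 198. With both proteins it was 299.8, 314 and 325. No array of either single treatment overlapped the BSA arrays or the arrays with both proteins, and these last lay below every BSA array. Rspo2 changed it by -0.78 ± 0.09 (SE) on the log2 scale, to 58.3% of the BSA level (adjusted p = 0.0023 in the limma fit), and Wnt3a by -0.66 ± 0.09, to 63.1% (adjusted p = 0.00104). The change under both was -0.21 ± 0.09 (86.7%), which did not pass (adjusted p = 0.105).

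The changes of Il6 with each protein summed to -1.44, whereas the change with both was -0.21, so the interaction was 1.24 on the log2 scale (95% confidence interval 0.95 to 1.53, limma adjusted p = 0.00082). In other words, Rspo2 lowered Il6 in the absence of Wnt3a, and in its presence Il6 was 0.46 higher with Rspo2 than without (adjusted p = 0.0196). Against Rspo2 alone, both proteins gave a level higher by 0.57 (adjusted p = 0.00181), a comparison added after the data were seen. The 9 or 10 spots of the probe used on each array were all well above background, and their log2 SD within an array was between 0.053 and 0.151. The rise over Wnt3a was the least stable of these results, since its adjusted p was 0.0773, 0.0731, 0.0559 and 0.091 without Wnt3a replicate 1, Wnt3a replicate 2, or replicate 1 or 2 of both proteins, and the interaction fell to 0.53 (adjusted p = 0.914) under another background correction, normexp. Under normexp the Il6 levels were -1.96, -0.56 and -1.79 with Rspo2 and -0.89, -1.39 and -1.42 with BSA, and without Rspo2 replicate 2 and BSA replicate 1 (chosen after the data were seen) the interaction was 0.79 (adjusted p = 0.0157). The falls of Il6 with the single proteins did not pass under normexp either, at -0.20 with Rspo2 (adjusted p = 0.808) and -0.56 with Wnt3a (adjusted p = 0.42), and without those 2 arrays the value for Rspo2 was -0.47 (adjusted p = 0.0721).

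Arrays were printed on 3 slides, which held the 3 BSA arrays with Rspo2 replicate 1, Wnt3a replicates 1 and 2 beside replicates 2 and 3 of Rspo2, and Wnt3a replicate 3 with the 3 arrays of both proteins. No slide held BSA with Wnt3a or with both proteins, so for these comparisons no value within a slide can be given. Within the first slide, Il6 was lower with Rspo2 by -0.87 on the log2 scale, and within the third it was higher with both than with Wnt3a by 0.37. When the slide was a term of the model, the Il6 interaction was 1.24 (adjusted p = 0.0238), while the change with Wnt3a was -0.84 (adjusted p = 0.0716) and the difference between both and Wnt3a was 0.37 (adjusted p = 0.314). The difference between both and Rspo2 was then 0.39 and no longer passed (adjusted p = 0.242).

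Among the other cytokines of the family, Il11, which acts through its own receptor chain and gp130, was near background. Its intensity was 16.3, 25.4 and 17.2 with BSA, none of these well above background, and 18.4, 15.7 and 20.0 with Rspo2, of which 1 was. It was 30.5, 18.6 and 26.6 with Wnt3a, of which 2 were well above background, and 29.1, 28.1 and 35.5 with both, where all 3 were. The measured log2 difference from BSA was 0.78 under both proteins (adjusted p = 0.00592) and 0.72 under Wnt3a (adjusted p = 0.0118). The probe entered the tests only because all 3 arrays with both were well above background. Its p-values are therefore no independent support for a rise. Because no BSA array measured it well above background, the size of the difference cannot be given. Set against the lowest signal well above background on each BSA array, the mean of Il11 with both was 1.02-fold higher. For Wnt3a no value above 1 was reached. Some spots brighter than that lowest signal were not well above background, so these values do not establish a rise. Under normexp the Il11 differences were -0.17 and -0.29 (adjusted p = 0.914 and 0.826), and under quantile normalization they were 1.25 and 1.11 and were called. With slide as a term they were 0.42 and 0.34 (adjusted p = 0.623 and 0.762).

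Clcf1, a cytokine that acts through the Cntf receptor, was bright, at 1963, 2889 and 2467 with BSA and 2661, 2339 and 2189 with Rspo2. It was 1999, 1415 and 2010 with Wnt3a and 1760, 1522 and 1509 with both. After scaling, the 3 arrays with both lay below all BSA and all Rspo2 arrays and overlapped the Wnt3a arrays. Against BSA, Clcf1 fell by 0.50 on the log2 scale with both (adjusted p = 0.0125), and it differed by 0.23 under Rspo2 (adjusted p = 0.241) and by -0.08 under Wnt3a (adjusted p = 0.697). Clcf1 with both proteins fell below Rspo2 alone by 0.73 on the log2 scale (adjusted p = 0.0035), while its interaction of -0.65 just missed the threshold (adjusted p = 0.0541). The fall against BSA with both was lost with slide as a term (-0.86, adjusted p = 0.195) and under normexp (adjusted p = 0.191). The fall below Rspo2 was lost under normexp (adjusted p = 0.167) and was -1.05 with slide as a term (adjusted p = 0.0476). Without BSA replicate 2 the fall with both against BSA gave an adjusted p of 0.0516, and without Wnt3a replicate 2 or replicate 1 of both proteins the interaction passed, at 0.0441 and 0.0344.

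The 2 probes of Cntf, a cytokine best known for its action on neurons, gave different answers. The dimmer probe, A_51_P378967, was 411, 414 and 404 with BSA and 231 to 350.1 over the 9 treated arrays, and its log2 changes of -0.29, -0.34 and -0.29 with Rspo2, Wnt3a and both had adjusted p-values of 0.0495, 0.016 and 0.0277. The brighter probe, A_52_P578538, changed by 0.02, 0.06 and 0.04, with adjusted p-values of at least 0.662. Only the dimmer probe lists the current RefSeq accession of Cntf. Its result with Rspo2 passed with 1 of the 12 arrays left out and not with any of the 11 others (adjusted p up to 0.151). Its results with Wnt3a and with both were lost with slide as a term, at -0.14 and -0.01 (adjusted p = 0.753 and 0.984), under normexp (adjusted p = 0.487 and 0.473) and without BSA replicate 1 (adjusted p = 0.0571 and 0.0986).

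Oncostatin M mRNA was not detected. Of its probes, A_51_P291361 was well above background on 1 of 12 arrays, at 47.8 in replicate 3 of both proteins, and A_52_P348614 on 0 of 12, with intensities between 3.08 and 24.7. Lif itself was not measured by a probe of its name. A probe annotated to a cDNA clone described as leukemia inhibitory factor, AK019683, is no member, and it differed from BSA by 0.53 on the log2 scale with both proteins (adjusted p = 0.266).

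Of the receptors, Osmr, the chain that joins gp130 to bind oncostatin M, fell in each treatment and fell furthest with both proteins. Its brighter probe, A_51_P319460, read 4227, 4754 and 4552 with BSA and 2809, 2635 and 2396 with Rspo2. It read 2447, 2254 and 2051 with Wnt3a and 1722, 1807 and 1954 with both. After scaling, every array with both lay below every array with 1 protein, and these lay below every BSA array. Both proteins changed it by -1.20 ± 0.07 (SE) on the log2 scale, to 43.4% of BSA (adjusted p = 1.36e-06). Rspo2 alone changed it by -0.55 ± 0.07 (adjusted p = 0.00438) and Wnt3a alone by -0.65 ± 0.07 (adjusted p = 0.000369). The level with both was below Wnt3a alone by -0.56 (adjusted p = 0.00176) and, in the comparison added later, below Rspo2 alone by -0.66 (adjusted p = 0.000173).

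The dimmer Osmr probe, A_52_P495729, read 473, 617 and 651 with BSA, 327, 326 and 289 with Rspo2, 326, 213 and 249.6 with Wnt3a and 230.0, 229 and 261 with both. Its log2 changes were -0.63, -0.79 and -1.16 (44.7% of BSA with both, adjusted p = 3.08e-05). Here the difference between both proteins and Wnt3a, -0.37, did not pass (adjusted p = 0.106). For neither Osmr probe did the change with both differ detectably from the sum of the single changes, which was -1.19 for the brighter probe (interaction -0.01, 95% confidence interval -0.24 to 0.23) and -1.43 for the dimmer (interaction 0.27, -0.08 to 0.61). Within the first slide the 2 probes were lower with Rspo2 by -0.63 and -0.77, and within the third lower with both than with Wnt3a by -0.46 and -0.35. With slide as a term both probes still passed with both proteins (adjusted p = 0.00691 and 0.0371), whereas the dimmer probe did not with Rspo2 or with Wnt3a alone (adjusted p = 0.094 and 0.0831). The brighter probe's difference between both and Wnt3a was then -0.46 and no longer passed (adjusted p = 0.0602). Under normexp the single treatments did not pass for either probe, with adjusted p-values of 0.301 and 0.0743 for the brighter and 0.809 and 0.263 for the dimmer, whose value with Rspo2 was -0.16. Over all alternatives tried, the change of Osmr with both proteins lay between -1.32 and -1.13 for the brighter probe and between -1.34 and -0.98 for the dimmer, with adjusted p-values of at most 0.0464.

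**Figure D2:**
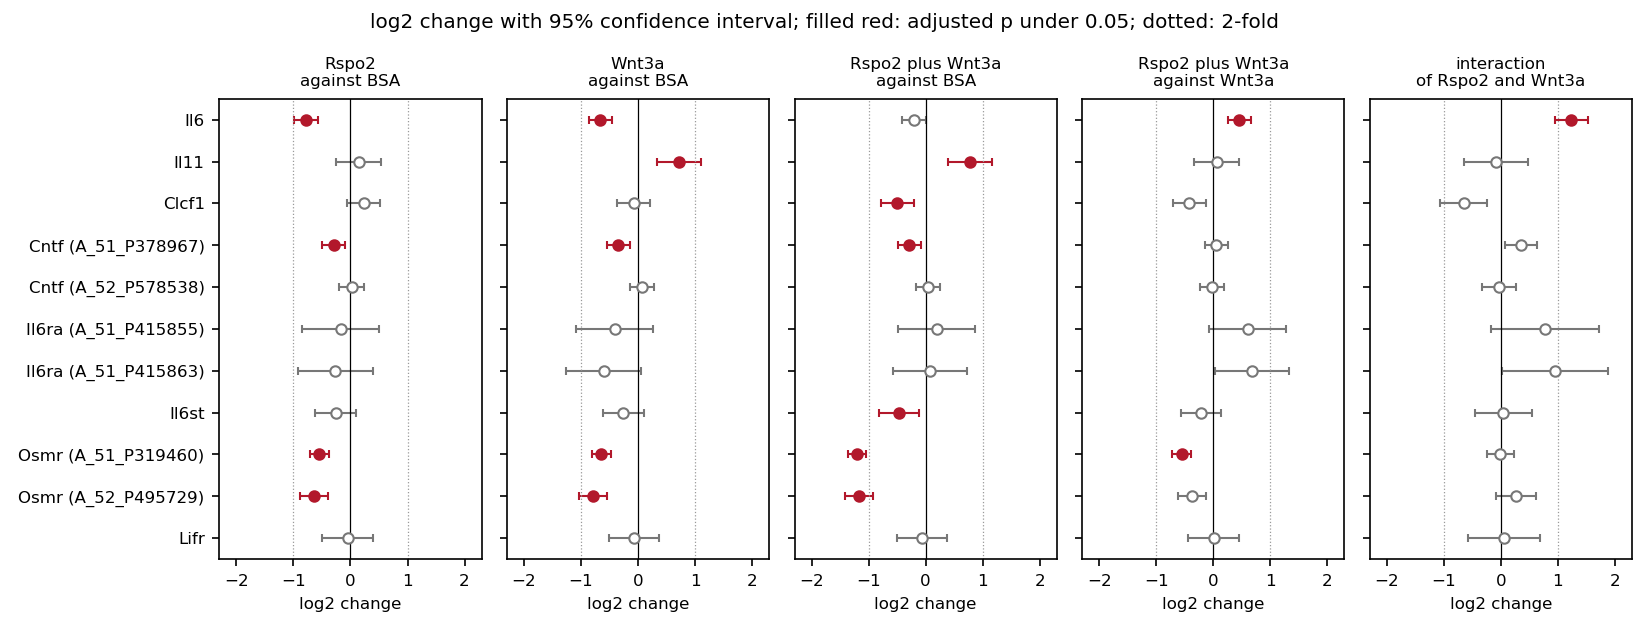
Log2 change of the 11 tested family probes in each of the 5 comparisons, with 95% confidence intervals from the fit over 12 arrays. Filled red points have an adjusted p under 0.05, and dotted lines mark 2-fold. The Osmr probes lie at -1.20 and -1.16 with both proteins, and Il6 lies at 1.24 in the interaction.

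Il6st, the shared gp130 chain, was bright in every group. It read 3447, 4959 and 5170 with BSA, 3356, 3241 and 2865 with Rspo2, 3846, 2834 and 2253 with Wnt3a and 2576, 2800 and 3722 with both. The log2 change was -0.26 with each protein alone (adjusted p = 0.276 and 0.244) and -0.47 ± 0.16 (SE) with both (adjusted p = 0.0379). The fall with both no longer passed without BSA replicate 2 or 3, Wnt3a replicate 2, or replicate 1 or 2 of both proteins (adjusted p 0.0947, 0.131, 0.0504, 0.127 and 0.107), nor with the replicate number as a block (adjusted p = 0.0673), with slide as a random block (0.0942) or without the filter on dim probes (0.0963). With slide as a term the difference was -0.12 (adjusted p = 0.892), and under normexp it was -0.39 (adjusted p = 0.308).

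Il6ra, the chain that binds interleukin 6, varied more between monolayers of a group than between groups. The probe A_51_P415855 read 244, 252 and 306 with BSA, 268, 206 and 145 with Rspo2, 222, 107 and 160.1 with Wnt3a, and 161, 322 and 441 with both. With both proteins, replicate 1 lay below every BSA array and replicates 2 and 3 above them. The probe A_51_P415863 followed it from array to array, the difference between the 2 probes having an SD of 0.09 over the 12 arrays against SDs of 0.43 and 0.45 for the levels themselves. None of the comparisons passed for either probe, and the interactions were 0.77 (95% confidence interval -0.18 to 1.73, adjusted p = 0.257) and 0.95 (0.02 to 1.87, adjusted p = 0.163). Without replicate 1 of both proteins they were 1.15 and 1.29 and passed (adjusted p = 0.0496 and 0.0419), which raised the family probes called in the interaction from 1 to 3.

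Lifr, the chain that binds leukemia inhibitory factor, was near background. Its probe A_51_P113182 was well above background on 8 of 12 arrays, with intensities between 19.0 and 38.9, and differed from BSA by -0.05, -0.07 and -0.07 on the log2 scale (95% confidence intervals within -0.52 to 0.39). It was tested only because all 3 arrays with both were well above background. The other 3 Lifr probes were well above background on 2, 0 and 3 of 12 arrays and were not tested. The last of these, A_52_P579352, read 27.2 to 46.5 with BSA, where 2 of 3 arrays were well above background. With both proteins it read 14.8 to 17.4, where 0 were. The tested probe therefore does not settle whether Lifr changed.

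**Figure D3:**
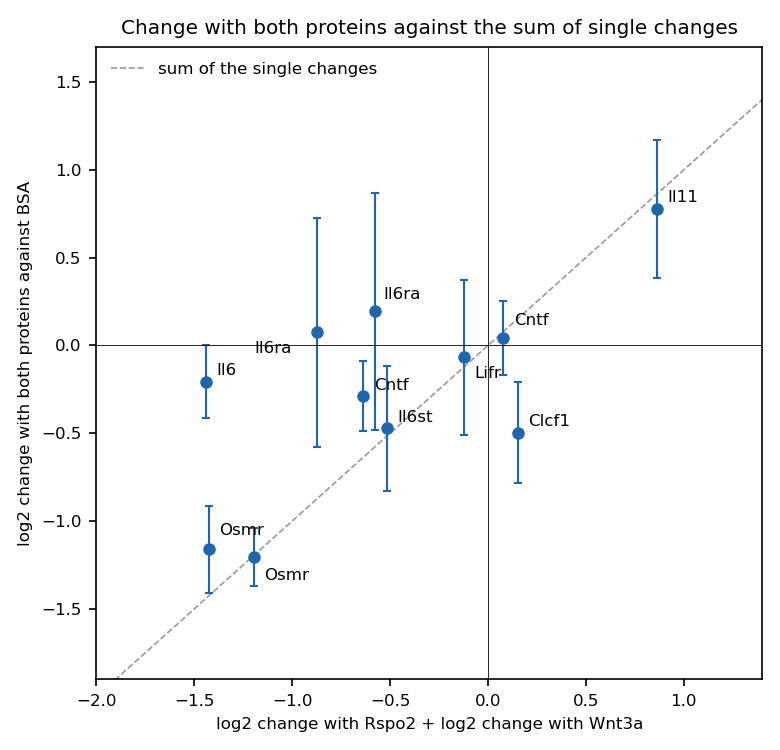
Log2 change of the 11 tested probes with both proteins against BSA (vertical, with 95% confidence interval) plotted against the summed log2 changes of the single treatments. The dashed line marks equality. Il6 lies above the line, at -0.21 against a sum of -1.44. The Il6ra probes (interactions 0.77 and 0.95), the dimmer Cntf probe (0.35) and the dimmer Osmr probe (0.27) also lie above it. Clcf1 lies below it (-0.65). The Il11, Il6st and Lifr probes and the brighter Osmr and Cntf probes lie near the line. Only the Il6 interaction had an adjusted p under 0.05 in the limma fit.

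Over the 12 arrays, the genes with the pattern most like a member were found among 12152 genes by the root mean square difference of log2 levels relative to the BSA mean. For Il6 (added after the data were seen) they were Fndc7 (0.108), Gbp3 (0.128) and Slc7a2 (0.184). Fndc7 differed from BSA by -0.75 under Rspo2, -0.67 under Wnt3a and -0.17 under both, and Gbp3, an interferon-inducible GTPase, by -0.65, -0.66 and -0.30. For the brighter Osmr probe they were Traf1 (0.0836), an adaptor of tumor necrosis factor receptors, LOC668856 (0.0905) and Matn2 (0.0988). For the dimmer they were LOC381508 (0.101), Nod1 (0.13), a sensor of bacterial cell wall fragments, and Stard9 (0.147). Traf1 changed by -0.45, -0.59 and -1.10 in the 3 treatments and Nod1 by -0.70, -0.80 and -1.22.

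The neighbours of the family were taken from 4 gene lists, each gene represented by its brightest detected probe. Of 10 further ligands and receptors of the family, 4 were detected. Il11ra1, the receptor chain of interleukin 11, differed by 0.18, 0.02 and -0.15, Ctf1 (cardiotrophin 1) by 0.25, 0.15 and -0.01, and Il27 by 0.17, 0.26 and 0.14, and of these only Il27 with Wnt3a passed (adjusted p = 0.0338). Cntfr, Ctf2, Ebi3, Il27ra, Il31 and Il31ra were not detected.

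All 26 genes of gp130 signalling and its inhibitors were detected, and 0 were called in any comparison, against 0.721% to 5.08% of all probes tested. At an adjusted p under 0.05, 3 were lower with Rspo2, against 16.8% of all probes passing in either direction. With Wnt3a 7 were lower and 1 higher (31.5% of all probes), and with both 9 lower and 3 higher (39.2%). With so many probes passing in all, these counts are not read as a result about the list. The median log2 change with both was -0.09. The kinase Tyk2 fell by 0.70 with both (adjusted p = 0.000189). Socs3 fell by 0.38 with both (adjusted p = 0.00683), and Cish and Socs2, which are likewise inhibitors of Jak and Stat signalling, had log2 changes of -0.57 and -0.52 there (adjusted p = 0.000399 and 0.00135). Stat3 differed from BSA by -0.64 with both and did not pass (adjusted p = 0.055). Socs1 was 0.37 higher with both (adjusted p = 0.0218).

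Among genes known to respond to cytokines of this family, 23 of 31 were detected. With both proteins 8 were called lower and 0 higher, against 5.08% of all probes tested called in either direction. At any size of change 13 were lower, 4 were higher and 6 did not pass, where 39.2% of all probes passed. The median log2 change with both was -0.65, against 0.02 with Rspo2 and -0.38 with Wnt3a. Lcn2, an iron-binding acute phase protein, read 3269 to 4696 under BSA, 149 to 194 under Rspo2, 47.2 to 57.3 under Wnt3a and 21.8 to 27.2 under both, where 1 of 3 arrays was well above background. The measured log2 changes of Lcn2 were -4.34, -5.89 and -7.31 (adjusted p = 1.37e-10 with both). Haptoglobin (Hp) read 416 to 615 with BSA. With Wnt3a, where no array was well above background, it was lower by an approximate bound of 20.6-fold. Saa3, a serum amyloid A gene, was lower by approximate bounds of 5.16-fold with Rspo2 and 6.12-fold with Wnt3a. With both proteins Hp and Saa3 were well above background on 1 of 3 arrays each. Complement C3 had log2 changes of -2.20, -3.11 and -3.98 in the 3 treatments (adjusted p = 7.6e-08 with both), and it was well above background on every array.

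Lbp, the binding protein of bacterial lipopolysaccharide, and Orm1, another acute phase protein, followed a different order. They differed from BSA by 0.02 and 0.09 with Rspo2 (adjusted p = 0.914 and 0.687), by -0.77 and -0.59 with Wnt3a (adjusted p = 0.000427 and 0.00888) and by -1.67 and -1.53 with both. The other genes called lower with both were Hgf, a growth factor for epithelial cells (-1.45), and the transcription factor Cebpd (-1.08). In the interaction, where 1.93% of all probes were called, 4 genes of the list were called positive, namely Lcn2, Hp, Saa3 and C3. Another 2 were called negative, namely Orm1 and Hgf. For Lcn2, Hp and Saa3 the positive values rest on groups in which at most 1 of 3 arrays was well above background.

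Of 7 regulators of Il6 mRNA decay, all were detected. Zc3h12a, an RNase that degrades Il6 mRNA, read 389 to 434 under BSA, 92.3 to 222 under Rspo2, 106 to 117 under Wnt3a and 126 to 168 under both. It was called lower in each treatment, with log2 changes of -1.38, -1.55 and -1.47 (adjusted p = 0.00441, 0.000533 and 0.000233), and its interaction was 1.46 (adjusted p = 0.0129). Zfp36, which also destabilizes cytokine mRNAs, was higher by 0.48, 0.61 and 0.67 (adjusted p = 0.0281, 0.00439 and 0.00165). Arid5a, which stabilizes Il6 mRNA, was 0.54 higher with both (adjusted p = 0.0215).

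**Figure D4:**
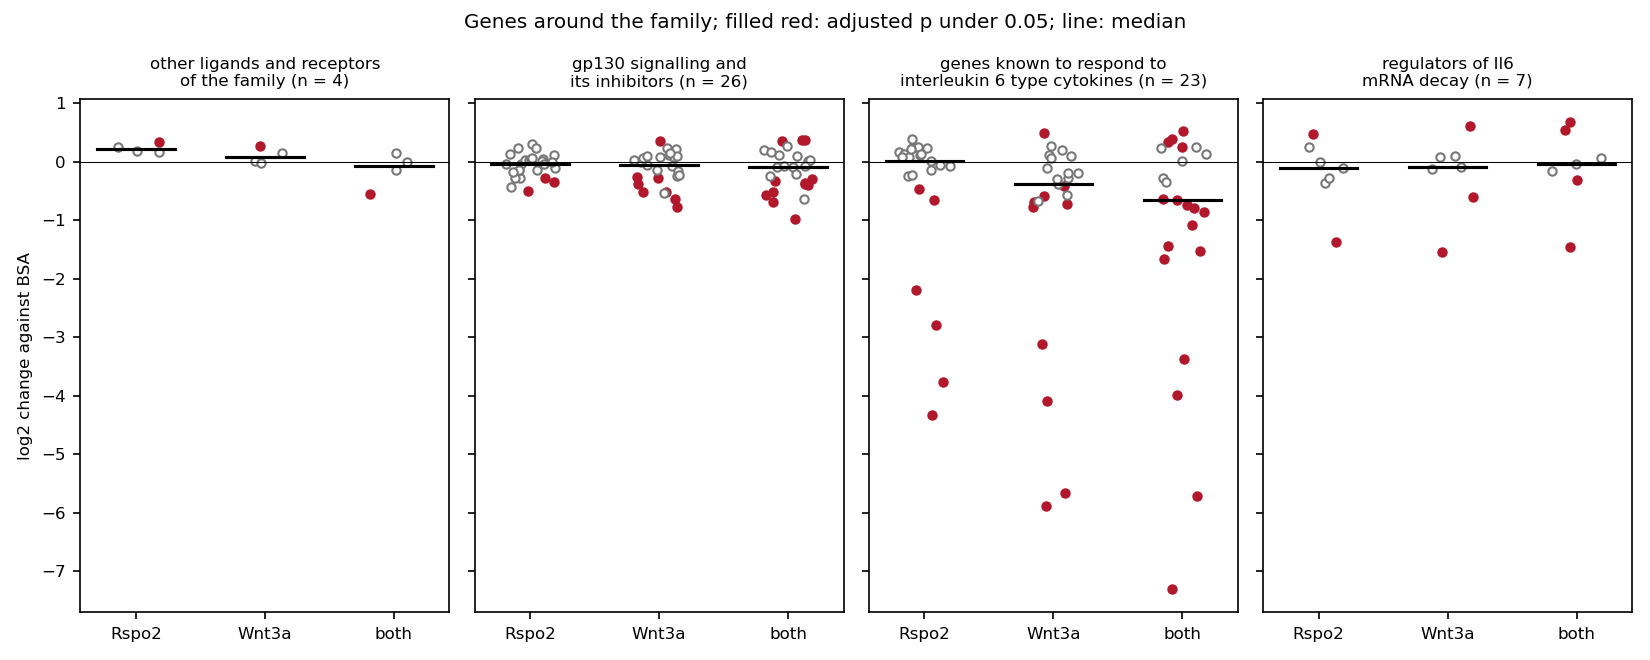
Log2 change against BSA of every detected gene of the 4 lists (n = 4, 26, 23 and 7 genes), with Rspo2, Wnt3a and both proteins. Each point is a gene by its brightest probe, filled red at an adjusted p under 0.05, and the line is the median of the list. The medians of the responsive genes are 0.02, -0.38 and -0.65.

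The cell type was checked with marker genes. Of 8 luminal mammary markers only Krt8 was detected, and Cdh1, Elf5 and Csn2 were well above background on 0 of 12 arrays. Of 6 basal or myoepithelial markers 5 were detected and of 9 mesenchymal markers 8, with Thy1 well above background on 0 arrays. Summed over the basal list, the level relative to the 75th percentile was 133 to 141 under BSA, 171 to 193 under Rspo2, 185 to 206 under Wnt3a and 220.1 to 258 under both (the order opposite to Osmr), a sum carried by the bright probe of Acta2, smooth muscle actin, with that of Krt14. Acta2 rose by 0.43, 0.48 and 0.78 on the log2 scale in the 3 treatments and Krt14 by 1.24 with both, whereas Trp63 fell by 0.40 with both (adjusted p = 0.0143) and Krt5 had changes of -0.84 and -0.57 with the single proteins (adjusted p = 0.0212 and 0.0405). Summed over 6 myeloid markers, of which 3 were detected, it was 1.68 to 1.77 under BSA, 2.17 to 2.33 under Rspo2, 2.17 to 2.3 under Wnt3a and 1.76 to 1.8 under both (the order opposite to Il6), a sum carried by the probe of Lyz2, lysozyme, while Ptprc, Adgre1 and Itgam were each well above background on 1 array. Csf1r and Cd68, the other detected myeloid markers, did not follow it, with log2 differences from BSA of -0.19, -0.33 and -0.75 for Csf1r and 0.34, 0.15 and -0.23 for Cd68. Of 4 endothelial markers only Cdh5 was detected, and the summed level of the list was 2.43 to 2.6 under BSA, 1.85 to 1.89 under Rspo2, 1.66 to 1.87 under Wnt3a and 1.63 to 1.75 under both. Among single markers, Pdgfra and Krt8 had the order of Osmr, with log2 changes of -0.56, -0.81 and -1.37 for Pdgfra (adjusted p = 0.0154, 0.000883 and 8.77e-06) and differences of -0.23, -0.69 and -1.15 for Krt8 (adjusted p = 0.323, 0.00896 and 0.000365). Col3a1 and Pdgfrb fell with both, by 0.85 and by 0.60. Summed over the mesenchymal list, the level did not fall. It was 522 to 543 under BSA, 543 to 630 under Rspo2, 573 to 640 under Wnt3a and 551 to 586 under both. The brightest probes in this sum were those of S100a4 and Vim. Of the 8 detected mesenchymal markers, 2 passed lower and 0 higher with Rspo2, where 16.8% of all probes passed. With Wnt3a 3 were lower and 2 higher (31.5% of all probes), and with both 4 were lower and 0 higher (39.2%). These counts are not read as a result about the markers. Col1a1 had the order of Il6, with differences of -0.47, -0.31 and -0.07 (adjusted p = 0.0197, 0.0385 and 0.62) and an interaction of 0.71 (adjusted p = 0.0182). The T cell marker Cd3e, which was dim at 21.0 to 92.4, differed by -0.79, -1.01 and -0.14, of which the value with Wnt3a was called (adjusted p = 0.0397). Of the 3 T cell markers, Cd4 was well above background on 5 of 12 arrays and Cd8a on 0. The median log2 change of the 2 detected, Cd3e and Cd4, was -0.44, -0.65 and 0.16. The part of these markers in the changes of Il6 and Osmr was not tested. In such a culture fewer cells with a transcript and less transcript per cell cannot be told apart. Between 51.3% and 64.1% of all probes were well above background per array, with BSA replicate 1 the highest.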

How the data were processed

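RNA from 12 monolayers, 3 per group, was labeled with Alexa-555 and hybridized to Agilent mouse arrays of 4 × 44K format. The authors extracted intensity values with Agilent Feature Extraction 9.5.3.1, which subtracted background and removed trends within each array but did not scale between arrays. The deposited files also give the mean and local background intensity of each spot. A deposited table holds ratio values that the authors made with GeneSpring, in which every array was scaled to a 75th percentile of 1 and no log was taken. It was used as an alternative, after its columns were matched to the scanner values (correlation of gene-centred values at least 0.976 with the own array and at most 0.691 with another). Its column medians were 0.05 to 0.08.

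Spots marked uneven or as outliers were left out (1327 of 520548 values), spots of a probe were averaged, and each array was then scaled by its 75th percentile (774 to 1146 intensity units) before log2 was taken. For a probe printed more than once, detection needed 0.5 of its spots. No probe was dropped for saturation. Lists were matched through RefSeq accessions (22951 probes) or the symbol of the files. The limma 3.58.1 fit in R 4.3.3 took all 12 arrays, with a prior of 2.74 degrees of freedom, and was tested on simulated data. Signal over background limits the precision of dim probes. Where a group had no array well above background, a bound was computed against the lowest signal well above background on each array. That signal is no strict upper limit for spots not well above background, so the bounds are approximate. Labels number the monolayers without saying that a number was shared between groups, and p-values measure the spread between these monolayers.

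Members and lists were chosen with earlier results of these data known. All probes of all members are described, up to 6 called genes with the largest change with both proteins are named per list with the detected further ligands and receptors, and the 3 most alike genes are named per called member probe. Other list genes in the text were chosen after their values were seen. Results of some list genes are not reported here, though they are in the counts. Motifs were searched in RefSeq promoters, which 8 of 10 members had. Figures used matplotlib 3.10.9 in Python 3.11.15. Alternatives were other background corrections, scalings, filters and tests, the replicate block, the slide, and each array left out.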

Additional observations from a re-analysis of the deposited data

Results flagged for a closer look

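The effect of Rspo2 on Il6 differed between cells with and without Wnt3a. Rspo2 alone changed Il6 by -0.78 on the log2 scale, and in cells that also received Wnt3a it changed it by 0.46, so the difference was 1.24 (adjusted p = 0.00082 in the limma fit, 3 arrays per group). All 3 Rspo2 arrays lay below all 3 BSA arrays, and all 3 arrays with both proteins lay above all 3 Wnt3a arrays. Groups of 3 arrays were too small to be searched for single outlying arrays.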

How the results depend on the processing

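Besides each of the 12 arrays left out, 14 alternatives were tried, of which 1 was chosen after the data were seen. Without the 2-fold requirement the family probes called rose to 4 with Rspo2, 5 with Wnt3a, 6 with both and 2 between both and Wnt3a, and stayed at 1 in the interaction. Quantile normalization called 1 probe with Wnt3a (Il11, in place of 0) and 3 with both. With normexp 0 were called in the interaction. With normexp and BSA 1 and Rspo2 2 left out, 1 was called with both and 0 in the interaction. With arrays left out, the count in the interaction ranged from 1 to 3, and the other counts did not change. Signs turned only with normexp: Il11 to -0.17 with Wnt3a, -0.29 with both and -0.90 between both and Rspo2, and Il6 to -0.032 between both and Rspo2. The cause was not tested. A turned sign was counted only where either value passed. With the replicate number as a block the counts stayed at 0, 0, 2, 0 and 1, and the difference of Il6 between both and Wnt3a had an adjusted p of 0.0623. Same-numbered arrays deviated together in 4 of 18 pairs (correlation over 0.1, median 0.014), so the numbers were not taken to pair the samples. The median of all probes moved by over 0.1 with normexp (0.14 with Rspo2, -0.10 with both, -0.16 in the interaction), with the percentile over probes above background on all arrays (-0.12 with Wnt3a, -0.11 with both, 0.11 in the interaction) and without the filter (-0.16 with Wnt3a, -0.25 with both). Called probes in all were 438 in the interaction and 164 with Rspo2, against 3 and 3 with normexp, 151 and 65 with slide as a term, and 2 with Rspo2 by the methods' t-test after Benjamini-Hochberg, which called the same 2 family probes with both. Leaving out 1 array moved some of these totals by over 1.5 times: with Rspo2 to 97 without BSA replicate 1 and 92 without Rspo2 replicate 3, between both and Wnt3a from 170 to 340 without Wnt3a replicate 3, and in the interaction to 744, 281 and 291 without Rspo2 replicate 1, 2 and 3 and 279 without Wnt3a replicate 2. By the methods' t-test after Benjamini-Hochberg, the falls of Clcf1 (adjusted p = 0.091) and Il6st (adjusted p = 0.114) with both and of Il6 with Rspo2 (adjusted p = 0.152) and Wnt3a (adjusted p = 0.0635) did not pass. Dim probes (Il11, Lifr, Osm) are limited by signal over background.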
